A study of Mus musculus with 6 samples.

Results

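Smooth muscle genes of the gastric wall were examined in the stomach antrum of Satin, Beige and BL6 mice. The set holds 37 genes of the contractile filaments, the cytoskeleton, the caveolae and the adhesion plaques of muscle cells, taken by gene symbol, with the brightest probe set standing for each gene. Of the 37, 35 had a probe set with a single gene symbol, among 12393 such genes, and 33 were bright enough to be tested, among 9395. Pgm5 and Ppp1r12a had no such probe set, and Ppp1r14a and Sgca were too dim.

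Satin and Beige are coat mutants, known for mutations in Foxq1, a forkhead transcription factor gene, and in Lyst, a gene of lysosome-related organelles. BL6 stands for C57/BL6, the common inbred strain. Each strain had 2 arrays, and Beige and BL6 were both titled as controls. The study asked how gastric cell lineages relate to FOXQ1. Age, sex, the genetic background of the mutants, and any stripping of the muscle wall from the mucosa are not stated in the labels. The design text speaks of 2 mice per strain, without saying that each array held RNA of 1 animal. Median signals ran from 58.6 to 74.15 on the Satin arrays and from 38.2 to 49.5 on the control arrays. The 8 antral markers all passed the filter on the mean over arrays. Their mean log2 level was 11.52 and 11.72 in Satin, against 12.38 and 12.38 in Beige and 12.27 and 12.18 in BL6. Gkn1, a secreted product of gastric surface cells, averaged 13.21 in Satin, 13.25 in Beige and 13.20 in BL6, while the surface mucin gene Muc5ac fell by 4.35 (limma adjusted p = 1.31e-06).

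Smooth muscle contracts when calcium and calmodulin activate myosin light chain kinase, which phosphorylates the regulatory light chain of myosin and lets it pull on actin, while a phosphatase reverses the step. The force is carried by desmin, filamin and actinin inside the cell and by plaques of vinculin, talin and integrin-linked kinase at the membrane. In the antrum the muscle coat grinds food and drives it toward the pylorus. Many of these genes are controlled by serum response factor, which binds a short A- and T-rich element, the CArG box, and by its partner myocardin.

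The CArG box was searched on both strands of the 250 bases before each listed start of the members, in the RefSeq promoter table of GRCm38.p6, because it is the element known to be shared by contractile genes. Of the 35 members on the array 30 had an entry, with 39 starts in all, and Actg2, Myh11, Myocd, Parva and Tagln had none. A gene was counted when any of its starts had a box, and Fhl1, Dmd and Myl6 had a box at 1 of their 2 starts. A CArG box stood in 6 of the 30 (20%) and in 1.62% of all 27025 genes with an entry. A variant with 1 G or C inside the A- and T-rich core stood in 4 members (13.3%), against 8.33% of all genes, and cannot overlap the strict form at the same bases. The stretches below run 5′ to 3′ on the gene's strand from up to 25 bases before the first box to 25 after the last, with the boxes in capitals. Acta2, the actin gene most used to mark smooth muscle, was added after the search for its pair of variant boxes.
Acta2 (chr19:34255374-34255482, minus strand): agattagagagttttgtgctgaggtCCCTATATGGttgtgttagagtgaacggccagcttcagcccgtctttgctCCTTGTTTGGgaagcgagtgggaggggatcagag
Fhl1 (chrX:56779556-56779615, plus strand): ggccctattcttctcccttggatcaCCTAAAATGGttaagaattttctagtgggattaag
Myl9 (chr2:156775278-156775399, plus strand): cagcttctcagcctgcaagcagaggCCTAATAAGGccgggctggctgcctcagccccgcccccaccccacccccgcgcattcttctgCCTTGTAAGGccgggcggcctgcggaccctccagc
Vcl (chr14:20929148-20929205, plus strand): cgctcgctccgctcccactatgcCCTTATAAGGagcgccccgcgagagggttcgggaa
Srf (chr17:46556190-46556269, minus strand): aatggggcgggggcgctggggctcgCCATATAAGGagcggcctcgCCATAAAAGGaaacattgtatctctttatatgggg
Dmd (chrX:82948747-82948806, plus strand): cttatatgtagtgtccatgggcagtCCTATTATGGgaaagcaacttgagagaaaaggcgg
Myl6 (chr10:128493025-128493084, minus strand): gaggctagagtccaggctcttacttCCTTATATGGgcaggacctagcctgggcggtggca
These are matches of letters in a short window and show nothing about binding. The first box of Acta2 began 84 bases before the start given in the table and the second 34, and the boxes of Srf began 82 and 62 bases before it.

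Levels below are log2(signal + 32) after quantile normalization, and a difference of 1 is a 2-fold change on that scale, less than the true change for a dim gene. Satin was compared with the mean of the 2 control strains with limma, and a gene was called at an adjusted p under 0.05 over all 9395 genes. In Satin, 5 of the 33 members fell (15.2%) and 0 rose, against 1.00% of all genes that fell, 0.436% that rose and 1.44% called either way. The 5 were Des, Cald1, Actg2, Tpm2 and Smtn. With the replicate number as a block 4 fell, Csrp1, Des, Smtn and Tpm2, against 0.915% of all genes. Of the 33, 28 lay below 0, and the median difference was -0.39, against -0.00 for all genes. Both Satin arrays lay below all 4 control arrays in 17 of the 33 members (51.5%), against 12.7% of all genes, and above them in 0, against 10.9%. By the size of the difference, 16 members ranked among the lowest 10% of all genes and 13 among the lowest 5%.

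These directions are relative to the bulk of genes, since the Satin arrays were brighter as deposited: there the median of all genes lay 0.42 higher in Satin, the median of the members lay at 0.00, and 16 of 33 members lay below 0. With scaling to the hybridization controls the medians were 0.46 for all genes and 0.05 for the members. The count of members with both Satin arrays below all controls depended on the scaling too. It was 3 as deposited (against 2.04% of all genes), 0 with hybridization controls (1.52%) and 13 with median centring (8.74%). Relative to all genes the members' median lay between -0.45 and -0.33 in the 11 other settings that kept all arrays. When each array was left out in turn, which leaves 1 array in a strain, that median lay between -0.54 and -0.33. The calls of members and of all genes both changed with the array left out, and under some omissions no member was called. In tissue RNA, fewer muscle cells and less of these transcripts per muscle cell cannot be told apart.

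**Figure D1:**
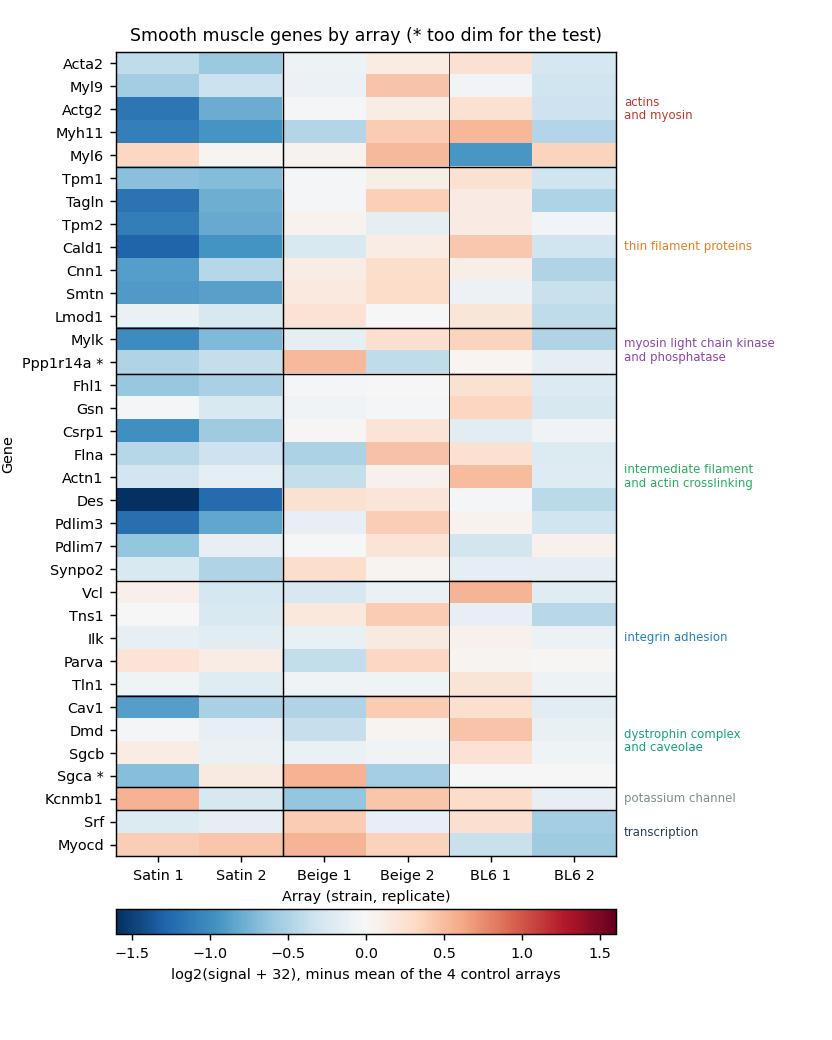
Level of the 35 smooth muscle genes on each array, as log2(signal + 32) minus the mean of the 4 control arrays, ordered by role and, within a role, by level (blue lower, red higher). Relative to the bulk of genes, the thin filament rows and, except Myl6, the actin and myosin rows were lower on both Satin arrays, as was Des, while the integrin adhesion rows stayed near the control mean. As deposited, with the Satin arrays brighter throughout, 16 of the 33 genes tested lay below the controls.

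Actins and myosin form the motor, and 1 of these 5 members fell. Actg2, the gamma actin of visceral smooth muscle, read 9.32 and 9.68 in Satin, against 10.44 and 10.59 in Beige and 10.72 and 10.14 in BL6. After normalization the Satin arrays lay below every control array, and the gene fell by 0.97 (SE 0.19, limma adjusted p = 0.0392), a 1.96-fold lower level. In the deposited signals Satin replicate 2 at 975.9 lay above BL6 replicate 2 at 917.4. As deposited the difference of Actg2 was -0.45, and with scaling to the hybridization controls -0.40. With the replicate number as a block the adjusted p of Actg2 in limma was 0.0633, within a range of 0.00811 to 0.384 over all settings. Acta2, the alpha actin of smooth muscle, read 11.62 and 11.43 in Satin, 11.94 and 12.14 in Beige, and 12.27 and 11.74 in BL6. On this normalized scale its groups did not overlap, but the gap to BL6 replicate 2 was small. The difference of Acta2 of -0.50 (SE 0.17, limma adjusted p = 0.256) did not pass. Myh11, the smooth muscle myosin heavy chain, read 8.91 and 9.07 in Satin, 9.55 and 10.42 in Beige, and 10.54 and 9.54 in BL6. The control arrays of a strain differed by about as much as the strains did, and its difference of -1.02 (SE 0.30, limma adjusted p = 0.163) did not pass. A second probe set of Myh11, dim at 6.05, gave -0.98. Myl9, the regulatory light chain that the kinase phosphorylates, differed by -0.45 (SE 0.18, limma adjusted p = 0.332), with 10.36 and 10.56 in Satin and 10.59 to 11.37 in the controls. Myl6, the essential light chain, was measured by a dim probe set that read 6.75 and 6.45 in Satin, 6.47 and 6.93 in Beige, and 5.48 and 6.77 in BL6, with overlapping groups and a difference of 0.19 (SE 0.36).

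Beside these muscle isoforms stood the actins of all cells, Actb and Actg1, which differed by 0.13 and 0.27 and were not called by limma. Their difference from Actg2 and Acta2 was not tested.

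The thin filament proteins, which cover actin and set its access to myosin, were the role with the most calls, 3 of 7 members. Cald1, the caldesmon gene, read 9.13 and 9.45 in Satin, 10.17 and 10.53 in Beige, and 10.85 and 10.10 in BL6, and fell by 1.12 (SE 0.22, limma adjusted p = 0.043). Blocked by replicate number, Cald1 had an adjusted p of 0.065 in limma, within a range of 0.00625 to 0.342 over all settings. Tpm2, beta tropomyosin, read 10.18 and 10.47 in Satin, 11.34 and 11.14 in Beige, and 11.41 and 11.24 in BL6. The 4 control values of Tpm2 lay close together, all above Satin, and the gene fell by 0.96 (SE 0.15, limma adjusted p = 0.0146). With its 4 probe sets averaged the value was -0.39 relative to all genes (limma adjusted p = 0.361, the highest of a range that began at 0.0102). Smtn, the smoothelin gene of contractile smooth muscle, read 7.68 and 7.72 in Satin, 8.75 and 8.88 in Beige, and 8.49 and 8.23 in BL6, with a fall of 0.89 (SE 0.16, limma adjusted p = 0.0282). Satin lay lowest and Beige highest in Smtn, with BL6 between them.

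Of the thin filament genes that did not pass, Tagln, the transgelin gene, came nearest, with 10.21 and 10.60 in Satin, 11.37 and 11.77 in Beige, 11.52 and 10.88 in BL6, and a difference of -0.98 (SE 0.21, limma adjusted p = 0.0613). Tpm1, alpha tropomyosin, read 10.73 and 10.70 in Satin against 11.07 to 11.64 in the controls, a difference of -0.68 (SE 0.17, limma adjusted p = 0.103). Cnn1, calponin, differed by -0.67 (SE 0.19) and overlapped the controls in 1 array, since Satin replicate 2 at 9.59 lay above BL6 replicate 2 at 9.57. Lmod1, leiomodin, was dim in all strains and differed by -0.19 (SE 0.24).

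Of the kinase and the phosphatase, Mylk, the myosin light chain kinase, read 9.70 and 10.004 in Satin, 10.57 and 10.97 in Beige, and 11.06 and 10.22 in BL6. After normalization all control arrays lay above Satin, but BL6 replicate 2 lay close, and the difference of -0.85 (SE 0.23, limma adjusted p = 0.137) did not pass. In the deposited signals BL6 replicate 2 at 975.3 lay below both Satin arrays, at 1064.2 and 1208.7. The other 2 probe sets of Mylk gave -0.60 and -0.70. Ppp1r14a, an inhibitor of the phosphatase, lay below the filter with 5.04 and 5.13 in Satin and 5.11 to 6.03 in the controls, and was not tested.

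**Figure D2:**
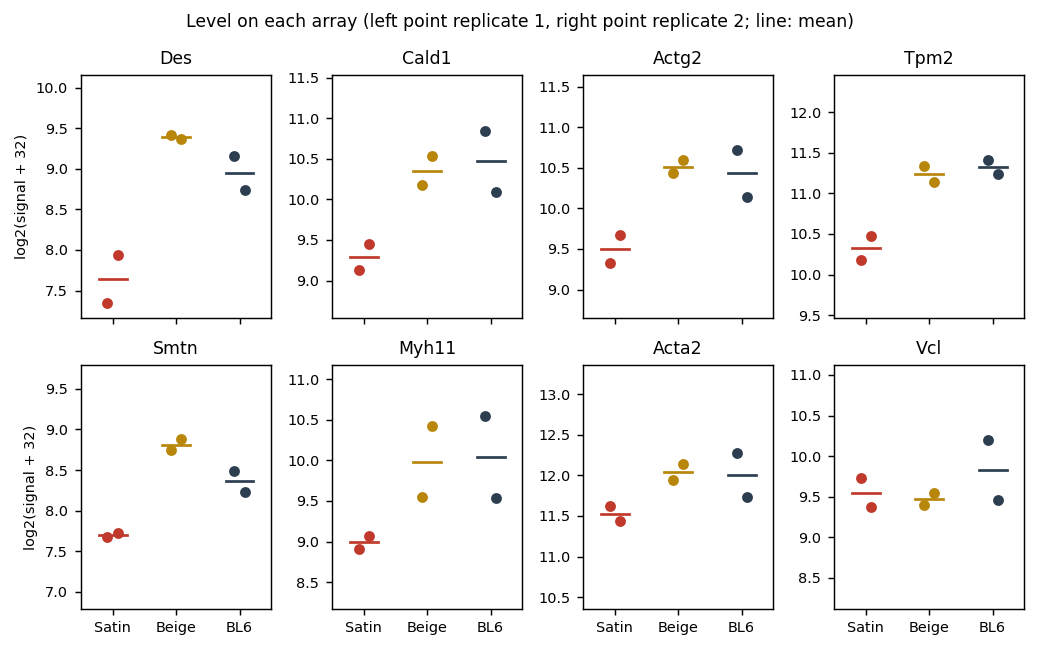
Level of 8 genes on each array as log2(signal + 32), with replicate 1 left and replicate 2 right of each strain's mean (line), on axes of equal span. Des, Cald1, Actg2, Tpm2 and Smtn fell in Satin, Myh11 and Acta2 did not pass the test, and the Vcl values of the strains overlapped.

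Des, the intermediate filament protein desmin that links dense bodies, had the lowest difference of the set and ranked at the 0.33 percentile of all genes. It read 7.35 and 7.93 in Satin, 9.42 and 9.36 in Beige, and 9.15 and 8.74 in BL6. The deposited signals were 183 and 264 in Satin, 554 and 698 in Beige, and 413 and 318 in BL6, so both Satin arrays were lowest before any normalization too. After quantile normalization Des fell by 1.53 (SE 0.20, limma adjusted p = 0.00758), a 2.88-fold lower level. As deposited its difference was -1.01, and with scaling to the hybridization controls -0.96. A second Des probe set, near the filter at 6.02, gave 0.39. With both averaged the value was -0.58 relative to all genes (limma adjusted p = 0.208, the highest of a range that began at 0.0043).

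Among the crosslinkers and LIM domain proteins of the same cytoskeleton, the values spread widely. Pdlim3, a LIM protein that binds actinin, read 7.37 and 7.76 in Satin, 8.45 and 8.98 in Beige, and 8.64 and 8.26 in BL6, with a difference of -1.02 (SE 0.21, limma adjusted p = 0.0539). Csrp1, a LIM protein of actin bundles, read 9.74 and 10.16 in Satin against 10.55 to 10.95 in the controls, and missed the threshold narrowly with a difference of -0.78 (SE 0.16, limma adjusted p = 0.0504). With the replicate block Csrp1 passed (limma adjusted p = 0.0379, in a range of 0.0379 to 0.56). Fhl1, a LIM protein of muscle, read 11.47 and 11.56 in Satin against 11.86 to 12.32 in the controls, a difference of -0.57 (SE 0.16, limma adjusted p = 0.142). Synpo2, an actin binding protein, lay near the filter, and its difference was -0.36. Pdlim7, a LIM protein of actin filaments, gave -0.37 with overlapping groups. Flna, the filamin that crosslinks actin in most cells, differed by -0.39 (SE 0.26), and Beige replicate 1 at 8.66 lay below both Satin arrays at 8.71 and 8.84. Actn1, an actinin found in many cell types, differed by -0.23 and Gsn, the actin severing protein gelsolin, by -0.13, both with overlap.

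By the brightest probe set of each, and on the normalized scale, the adhesion plaque genes lay close to the controls. Of the 5 tested, 0 were called by limma and 0 had an unadjusted p under 0.05, and their median difference was -0.12. As deposited, where the median of all genes lay 0.42 higher in Satin, the 5 differed by 0.37 to 0.67. Vcl, vinculin, read 9.73 and 9.37 in Satin, 9.40 and 9.55 in Beige, and 10.20 and 9.46 in BL6. Satin replicate 1 exceeded 3 of the 4 control arrays, and the difference of Vcl was -0.10 (SE 0.21, limma adjusted p = 0.898). Tln1, the talin that couples integrins to actin, differed by -0.13 (SE 0.16). Ilk, integrin-linked kinase, differed by -0.15 (SE 0.16), Tns1, the tensin that binds integrin tails, by -0.12 (SE 0.16), and Parva, the parvin that binds Ilk, by 0.17 (SE 0.21). These genes serve adhesion in many cell types besides muscle, epithelium included. Their difference from the thin filament genes was not tested. The sign of Vcl turned under 5 other settings that kept all arrays, and those of Tln1 and Tns1 under 1. Parva rose with scaling to the hybridization controls (limma adjusted p = 0.0479), over a range of 0.0479 to 0.999 in all settings.

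**Figure D3:**
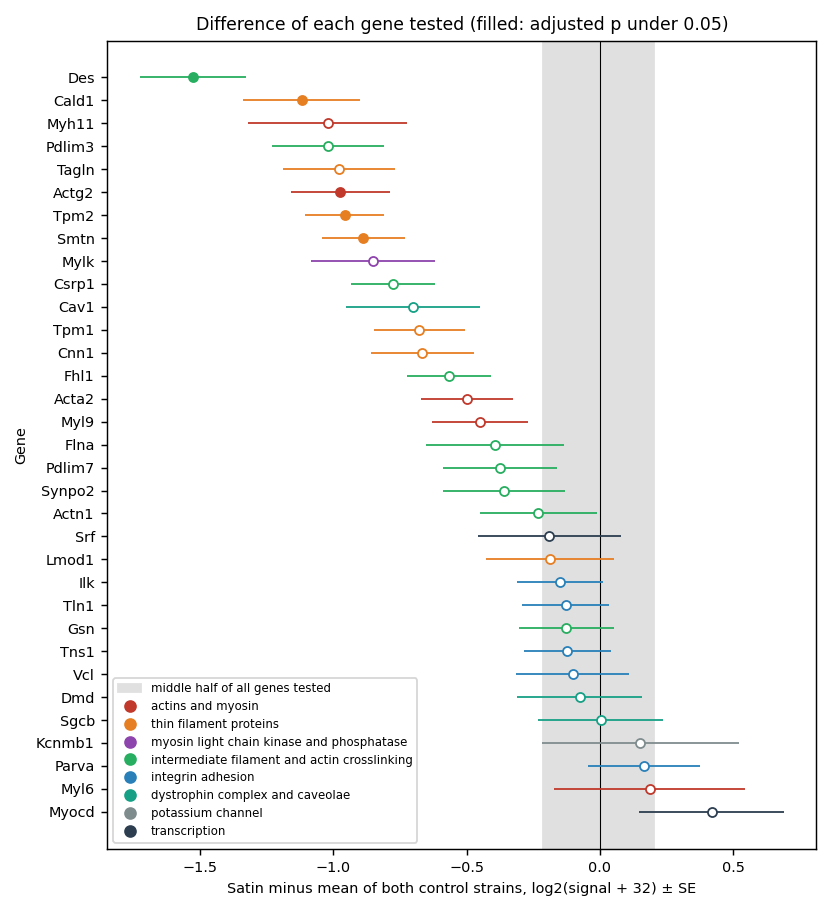
Fitted difference of Satin from the controls' mean for the 33 genes tested, as log2(signal + 32) with its SE, filled where the adjusted p was under 0.05 and coloured by role. The grey band spans the quartiles of all genes tested, -0.21 to 0.20. Relative to the bulk of genes, Des was lowest at -1.53 and the integrin adhesion genes lay inside the band, while as deposited the median of the set was 0.00.

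Of the dystrophin complex and the caveolae, which stabilise the membrane and hold signalling receptors, none of the 3 members tested was called by limma and 1, Cav1, had an unadjusted p under 0.05. Cav1, the coat protein of caveolae, read 8.26 and 8.61 in Satin, 8.65 and 9.55 in Beige, and 9.39 and 8.96 in BL6, a difference of -0.70 (SE 0.25, limma adjusted p = 0.272). Beige replicate 1 lay just above Satin. Dmd, dystrophin, differed by -0.08 and Sgcb, beta sarcoglycan, by 0.00. Sgca, alpha sarcoglycan, lay below the filter with 5.11 and 5.94 in Satin and 5.25 to 6.35 in the controls. Kcnmb1, a subunit of the calcium-activated potassium channel that relaxes muscle, was near the filter, and replicate 2 minus replicate 1 was -0.81 in Satin, 1.05 in Beige and -0.43 in BL6.

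Of the 2 transcription factor genes, limma called 0 and 0 had an unadjusted p under 0.05. Srf, serum response factor, read 6.93 and 7.001 in Satin, 7.57 and 7.02 in Beige, and 7.42 and 6.62 in BL6, a difference of -0.19 (SE 0.27, limma adjusted p = 0.842). Myocd, myocardin, read 6.25 and 6.30 in Satin, 6.41 and 6.23 in Beige, and 5.50 and 5.29 in BL6. Satin and Beige overlapped and both lay above BL6, and the difference of 0.42 (SE 0.27, limma adjusted p = 0.599) did not pass. Beside the sequences printed above, the 6 tested members with a CArG box had a median difference of -0.15 and the 22 without one -0.45, as a description of few genes. Acta2, with variant boxes only, is among the 22. With variant boxes counted too, the medians were -0.19 for 9 members and -0.39 for the 19 with neither. The members without an entry, Myh11 (-1.02), Tagln (-0.98), Actg2 (-0.97), Parva (0.17) and Myocd (0.42), are in none of these groups.

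Members with a higher level tended to have a lower difference. Across the 33 genes, the correlation of the control level with the difference was -0.61 (Pearson) and -0.63 (Spearman), a description over genes of the same arrays, in which dim genes are held toward 0 by the added 32. Of 17 members with a control level of 9 or more, a limit chosen after seeing the values, all 17 lay below 0 on the normalized scale and their median was -0.70. For all 1215 genes that bright the median was -0.02, and 3.37% fell. Among those 17, Vcl, Gsn and Flna lay above -0.4. The 16 dimmer members had a median of -0.14, and Smtn and Pdlim3 were the pair below -0.4.

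**Figure D4:**
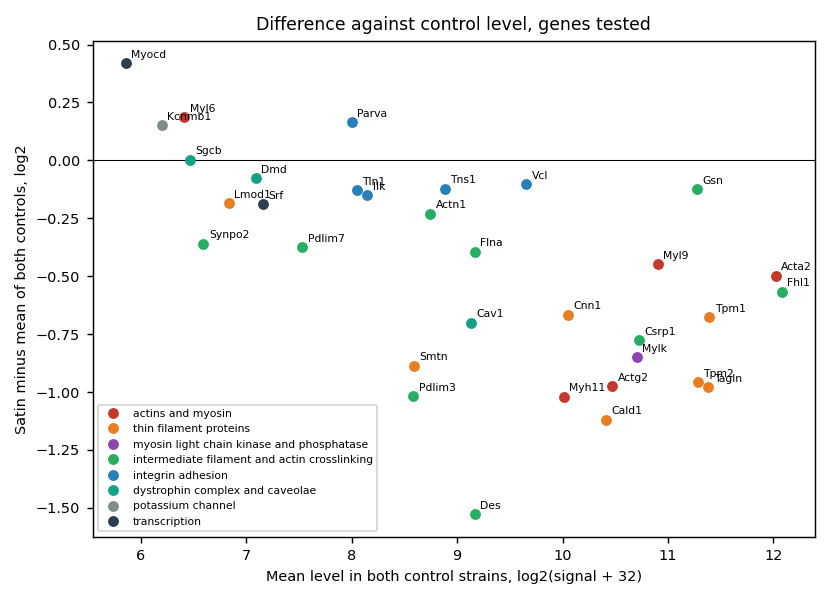
Difference of Satin from the controls' mean (vertical axis, log2) against the mean control level (horizontal axis, log2(signal + 32)) for the 33 genes tested. All 17 genes at a control level of 9 or more lay below 0 on this scale, which is relative to the bulk of genes, with Vcl and Gsn near 0 and Des lowest.

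Against each control strain alone, the counts were smaller. Satin against Beige gave 3 falls among the 33 members, in Des (-1.75), Smtn (-1.11) and Tpm2 (-0.91), against 0.671% of all genes that fell and 0.894% called either way. Satin against BL6 gave 2, in Des (-1.31) and Tpm2 (-1.002), against 0.522% that fell and 0.745% called either way. With the replicate block 2 members were called against Beige and 0 against BL6, without a count of all genes beside them. Both comparisons share the Satin arrays. Actg2 gave -1.02 against Beige and -0.93 against BL6, Smtn gave -1.11 and -0.66, and Tagln gave -1.16 and -0.80. Cnn1 gave -0.86 against Beige and -0.47 against BL6, and Tns1 gave -0.41 and 0.16. Between Beige and BL6, limma called 0 of the 33 members and 0% of all genes. An unadjusted p under 0.05 was reached by 3 members, Myocd (0.92), Tns1 (0.57) and Smtn (0.45), all higher in Beige, and by 482 of all genes. Myocd was dim, with signals as deposited of 50 and 39.6 in Beige and 11.1 and 5.5 in BL6, and its BL6 mean of 5.40 lay under the filter, so that it passed through Satin and Beige. The members' median was 0.07 in that comparison.

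The control arrays of a strain also differed in muscle genes. The mean level of the 35 members was 8.37 and 8.45 in Satin, 8.83 and 9.02 in Beige, and 8.99 and 8.63 in BL6. BL6 replicate 2 was the lowest control array in 19 of the 33 members tested and the highest in 0. Replicate 2 minus replicate 1 had a median over the members of 0.07 in Satin, 0.20 in Beige and -0.43 in BL6. Within the replicate 1 arrays alone the members' median was -0.48 for Satin against the mean of the controls, with 28 of 33 lower, and within replicate 2 it was -0.41, with 31 lower. In 27 members both were lower. All genes were not counted in this way, and what the replicate numbers pair is not known.

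Markers of other tissues also differed between the arrays. The 8 exocrine pancreas markers averaged 7.22 and 12.26 in Satin, 7.82 and 10.57 in Beige, and 7.42 and 12.98 in BL6. They were highest on the replicate 2 arrays of all strains, and highest of all on BL6 replicate 2. Of the pancreas markers limma called 0, and 0 had an unadjusted p under 0.05. The 10 fibroblast markers, which share Gsn with the muscle set, had a summed signal of 7936 to 8440 in Satin and 8499 to 11652 in the controls. Their median difference was -0.24, and limma called 0 of 10, with 4 lower and 1 higher at an unadjusted p under 0.05, a level that 12.6% of all genes reached. The pericyte marker Rgs5, expressed by vessel wall muscle too, differed by -0.75 (limma adjusted p = 0.143), and the 5 pericyte markers had a median of -0.02. Summed pericyte signal, which weighs bright genes most, was 1425 to 1509 in Satin and 1839 to 2810 in the controls. The mean log2 level of the 5 overlapped, with 7.09 to 7.21 in Satin and 7.11 to 7.34 in the controls. Both Satin arrays lay below all controls in 1 of the 5 and above them in 1. The part of these tissues in the muscle result was not tested.

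**Figure D5:**
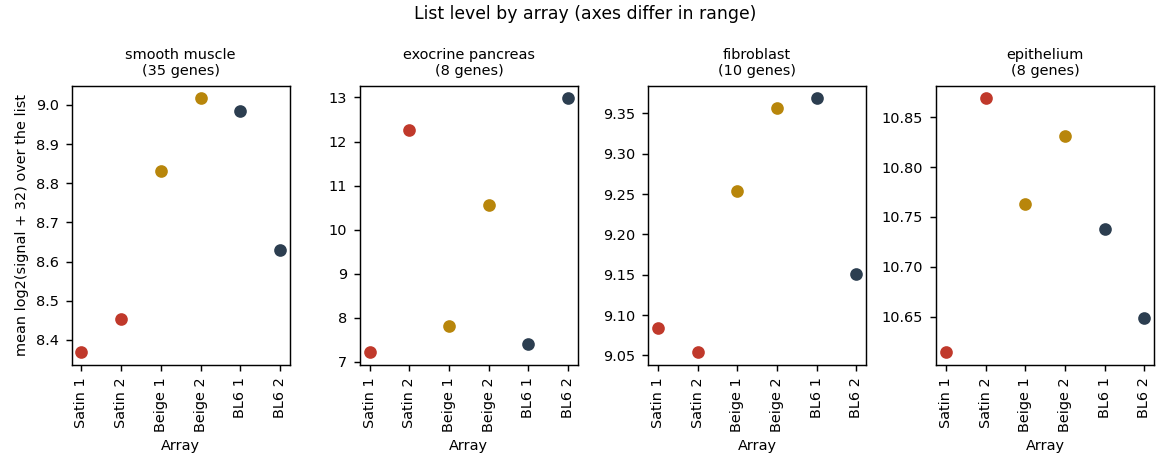
Mean log2(signal + 32) of 4 gene lists on each array, each panel on its own axis and coloured by strain. The smooth muscle mean was lowest on both Satin arrays relative to the bulk of genes, with BL6 replicate 2 next, and the pancreas mean was highest on the replicate 2 arrays.

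Of the 14 skeletal muscle markers, 11 lay below the filter, among them Acta1, Myh1 and Mylpf, and their summed signal was 142 to 218 in Satin and 281 to 356 in the controls. Of the 3 tested 0 were called, with a median of -0.73. Epithelial markers had a median of -0.00, and 1 of 8 fell, Krt20, a keratin of surface cells. Of the 8 antral markers 2 fell, the mucin gene Muc5ac and the gastrin gene Gast. No marker was called by limma among vascular endothelium (median -0.06, 9 tested), enteric neurons and glia (-0.27, 10 tested), mesothelium (-0.46, 2 tested), adipocytes (0.16, 3 tested) and immune cells (0.28, 7 tested). Interstitial cells of Cajal, the pacemaker cells between the muscle layers, were marked by Kit and Ano1, which differed by 0.43 and 0.29 and were not called. RNA integrity was gauged by Gapdh, whose 5′ signal over its 3′ signal was 1.18 and 1.16 in Satin, 1.02 and 0.990 in Beige, and 0.526 and 0.988 in BL6. With that ratio as a covariate limma called 0 members and 60 of all genes, and the members' median was -0.33 relative to all genes. Of the 33 members 21 then lay below the median of all genes, against 28 without the covariate. For actin the 5′ over 3′ ratio was 0.79 and 0.80 in Satin, 0.62 and 0.66 in Beige, and 0.44 and 0.73 in BL6.

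The rest of the same machinery was described by its own lists. Of 118 such genes in 5 lists, 87 were tested, and their median was -0.10. Of the 87, 2 fell and 0 rose, against 1.00% of all genes that fell and 0.436% that rose. Sspn, sarcospan of the dystrophin complex, read 5.18 and 5.35 in Satin, 6.79 and 7.28 in Beige, and 7.26 and 6.79 in BL6. It fell by 1.77 (SE 0.26, limma adjusted p = 0.0142), but its Satin values lay under the filter of 5.74, and it was tested only because the controls raised its mean. With the probe sets of Sspn averaged limma gave an adjusted p of 0.213, in a range of 0.00328 to 0.213. Tgfbr2, the type II receptor of TGF-beta, read 7.57 and 7.69 in Satin, 8.19 and 8.40 in Beige, and 8.52 and 8.56 in BL6, and fell by 0.79 (SE 0.16, limma adjusted p = 0.0454). The call of Tgfbr2 was lost with the replicate block (limma adjusted p = 0.065) and in 7 of the other 10 settings with all arrays, over a range of 0.0382 to 0.907.

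In the other 3 lists none was called by limma, and 8 of 27 contractile and structural genes, 3 of 15 adhesion genes and 2 of 17 calcium and receptor genes had an unadjusted p under 0.05, all lower in Satin, against 12.6% of all genes in either direction. In the transcription list 3 of 15 reached it, 1 lower and the other two higher in Satin. The smallest p among structural genes belonged to Pcp4, a calmodulin binding protein, at -1.25 (limma adjusted p = 0.0558), and Palld, an actin scaffold, at -0.57. Among calcium genes it belonged to Casq2, the calcium store protein calsequestrin, at -1.25, and Pln, the calcium pump regulator phospholamban, at -0.90. In the adhesion list Itga7, a laminin receptor subunit, gave -0.65 and Fermt2, a kindlin that activates integrins, -0.75. The caveolar coat genes Cavin1, Cavin2 and Cavin3 differed by -0.45, -0.88 and -0.94, beside Cav1 at -0.70, values picked from a list in which 4 of 13 genes had both Satin arrays below all controls, against 12.7% of all genes, and 7 of 13 lay above 0. With probe sets averaged Cavin1 was 0.0032 relative to all genes. The medians were -0.17 for the structural list, -0.12 for adhesion, 0.02 for the dystrophin complex and caveolae, -0.10 for calcium and receptors and -0.07 for transcription.

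Several members had more than 1 probe set. For 20 genes there were 31 further probe sets, of which 25 lay above the filter, and 19 of these were lower in Satin. Of the 9 further probe sets at a level of 8 or more, 8 were lower. Those of Cald1 gave -0.58 and -0.99 and those of Tpm2 gave -0.94, -0.06 and 0.43, the last pair dim at 6.32, while Actg2 and Smtn had 1 probe set each. Cald1, Acta2, Srf, Tns1, Parva and Gsn were read by probe sets of types that can match transcripts of more than 1 gene, so related sequences could share their signal.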

How the data were processed

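RNA of the stomach antrum was measured on Affymetrix expression arrays, 2 each for Satin, Beige and BL6 mice. Per the labels' protocols, Trizol was used to isolate total RNA, from which biotin-labelled cRNA was made. The authors deposited linear intensities, with a signal for every probe set on every array. The algorithm behind these signals and any scaling of the arrays were not given in the sources used here.

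Arrays were grouped by their titles. The 64 control probe sets were left out. For the rest, log2(signal + 32) was taken and the arrays were brought to common quantiles. Of 22690 probe sets, 20380 had 1 symbol in GEO's platform table, and the brightest probe set of each gene over the 6 arrays was kept, which gave 12393 genes. The filter dropped genes whose mean fell in the bottom 30% of probe sets (under 5.74), and 9395 were tested. A linear model (limma 3.58.1, R 4.3.3, two-sided moderated test with a mean-variance trend) was fitted once to all 6 arrays, with strain as the only factor, 3 residual degrees of freedom and 9.24 after moderation. Calls were made where the p adjusted after Benjamini and Hochberg across these genes was under 0.05. The code was first tested on simulated data.

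The members, their roles, the other gene lists and the rule for named genes were chosen with earlier results of these data known. By that rule the text names every member, called genes of the other muscle lists or the 2 with the smallest p, and up to 3 markers of a cell type. Genes named beyond it were chosen after their values were seen. Other pseudocounts, filters, scalings, probe set rules and variance models, the replicate number as a block, a Gapdh covariate and the omission of each array were tried. The labels do not say what the replicate numbers share. Deviations of same-numbered arrays correlated at 0.189, 0.272 and 0.118 in the 3 pairs of strains over all genes. Over the members the correlations were -0.0533, -0.114 and -0.0115. Whether the numbers pair the arrays was thus not settled. The main fit left the numbers out, and blocked values stand beside the calls they change. The sample columns left unused numbered 0. The number of arrays limits the precision, and p-values rest on the array spread within strains, part of which may be technical.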

Additional observations from a re-analysis of the deposited data

How the results depend on the processing

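The members' median relative to all genes stayed below 0 in all 11 other settings with all arrays (-0.45 to -0.33) and in all 6 omissions of an array (-0.54 to -0.33), while the calls depended on the setting. For Satin against both controls (5 members called), the count was 3 with no filter, 2 with scaling to the hybridization controls (1 lower and 1 higher), 1 as deposited (Des), with median centring (Des) or with probe sets averaged (Smtn), and 0 with no variance trend or with the Gapdh covariate. The omissions gave 0 to 14. Against Beige (3), the count was 1 as deposited, with median centring, hybridization controls or probe sets averaged, 0 with no trend and 8 with only the 4 arrays compared, and the omissions gave 0 to 10. Against BL6 (2), it was 0 with no filter, median centring, averaged probe sets, no trend, the Gapdh covariate or only the 4 arrays. It was 2 as deposited and 3 with hybridization controls, all higher in Satin. Under these settings all genes were not counted against Beige or BL6 alone, so these counts of members have no share beside them. Beige against BL6 gave 0 in all settings. Among all genes (135), the count was 1537 as deposited (62 lower, 1475 higher), 2263 with hybridization controls (61 lower, 2202 higher), 93 with median centring (46 lower, 47 higher), 85 with averaged probe sets, 36 with no trend and 60 with the covariate, and 28 to 298 in the omissions. Among the other smooth muscle genes (2), it was 9 as deposited and 16 with hybridization controls, mostly higher, 1 with no filter, median centring or no trend, 0 with averaged probe sets or the covariate, and 0 to 8 in the omissions. The causes were not tested.

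With the replicate number as a block, 4 members and 1 other smooth muscle gene were called against both controls, beside 1.31% of all genes. The block gave 2 members against Beige and 0 against BL6, where all genes were not counted. Actg2, Cald1 and Tgfbr2 lost their calls against both controls under the block, and Csrp1 gained one.

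Single differences relative to all genes turned in sign for members near 0. With the Gapdh covariate Actn1 was 0.14, Dmd 0.22, Gsn 0.17, Lmod1 0.11, Srf 0.20, Tln1 0.012, Tns1 0.036, Vcl 0.27 and Myl6 -0.46. The covariate also moved values without turning them, with Acta2 at -0.23, Myh11 at -0.49, Mylk at -0.42, Flna at -0.13, Cald1 at -0.73 and Tpm1 at -0.39. With averaged probe sets Dmd was 0.12, Vcl 0.17, Kcnmb1 -0.034 and Cavin1 0.0032. As deposited and with median centring Vcl was 0.0098 and Sgcb -0.080, and with hybridization controls 0.020 and -0.093. Over the omissions Dmd ranged from -0.21 to 0.069, Gsn from -0.26 to 0.023, Kcnmb1 from -0.25 to 0.55, Myl6 from -0.14 to 0.52, Parva from -0.0072 to 0.34, Sgcb from -0.11 to 0.10, Srf from -0.38 to 0.012 and Vcl from -0.28 to 0.084. Dim probe sets limit what could be measured for members near the filter.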
